A study of Mus musculus with 2 samples.

Results

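*Eomes*, *Tbr1*, *Lhx1*, *Lhx5*, *Lhx9*, *Reln*, *Trp73* and *Calb2* are genes associated with the thalamic eminence and with Cajal-Retzius neurons of the embryonic forebrain. They were read, as the rows with these symbols, from the UMI counts of single cells of mouse eyecups at E13.5 and were 8 of the 31053 genes listed. The genes were chosen with their difference between the libraries already known, so their levels are a description and no test was made. One library held control eyecups (Six3+/-;Six6+/-) and the other DKO eyecups (Six3F/F;Six6-/-;a-Cre) of littermate embryos. Both were made with version 3 of the 10x Genomics kit for 3' ends of single-cell transcripts, and both held retina, lens and blood. The control thus carried 1 functional copy of each of *Six3* and *Six6*. In the DKO, *Six6* was deleted in the germline, whereas the Cre acted in the peripheral retina from before this age and left the central retina without *Six3* deletion. The DKO library therefore mixed cells that had lost *Six3* with cells that had not, and the counts list no Cre feature that would tell them apart. By the study's methods, the eyecups of each library came from 1 embryo. With 1 library per genotype, a difference between the genotypes cannot be told apart from a difference between embryos or dissections. All intervals in parentheses are 95% intervals and cover counting error only.

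The thalamic eminence is a transient region of the forebrain at the border of the telencephalon and the prethalamus, and it is one of the sources of Cajal-Retzius neurons. Cajal-Retzius neurons are early-born glutamatergic neurons at the surface of the cortex, which secrete reelin to guide the layering of later neurons. In the embryonic retina, by contrast, progenitors pass through a state with the bHLH factor *Atoh7* and give rise first to retinal ganglion cells. *Eomes* and *Tbr1* encode T-box transcription factors, which mark successive steps of glutamatergic neuron formation in the cortex. *Lhx1*, *Lhx5* and *Lhx9* encode LIM-homeodomain transcription factors, and in the retina *Lhx1* is required for horizontal cells. *Reln* encodes reelin, *Trp73* a member of the p53 family that is expressed in many Cajal-Retzius neurons, and *Calb2* the calcium-binding protein calretinin, which labels Cajal-Retzius neurons as well as subsets of retinal ganglion and amacrine cells.

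In mm10 with the GENCODE M21 annotation, the 8 protein-coding genes lie on 7 chromosomes, with *Reln* (5:21884454-22344702, minus strand) and *Lhx5* (5:120431699-120441223, plus strand) far apart on the same one. The others are *Lhx9* (1:138825186-138848577, minus), *Tbr1* (2:61802930-61814114, plus), *Trp73* (4:154056253-154140208, minus), *Calb2* (8:110137502-110168210, minus), *Eomes* (9:118478212-118486132, plus) and *Lhx1* (11:84518284-84525535, minus). Promoter sequences were taken from RefSeq on GRCm38.p6 as the 250 bases before the annotated start, and 6 of the 8 genes had an entry. Six3 and Six6 are homeodomain proteins, and TAAT is the core of many homeodomain binding sites, so these letters were searched on both strands. The promoters of *Eomes* (chr9:118477939-118478188, plus strand) and *Tbr1* (chr2:61804203-61804452, plus strand) are printed because *Eomes* had the highest ratio between the libraries and *Tbr1* the most confined expression. Capitals mark TAAT, or ATTA where it reads TAAT on the other strand, and neighbouring matches overlap.
Eomes: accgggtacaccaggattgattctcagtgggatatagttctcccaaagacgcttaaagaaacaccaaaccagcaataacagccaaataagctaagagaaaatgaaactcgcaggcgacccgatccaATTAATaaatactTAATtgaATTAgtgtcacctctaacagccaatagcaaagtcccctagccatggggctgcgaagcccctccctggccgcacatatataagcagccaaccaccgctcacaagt
Tbr1: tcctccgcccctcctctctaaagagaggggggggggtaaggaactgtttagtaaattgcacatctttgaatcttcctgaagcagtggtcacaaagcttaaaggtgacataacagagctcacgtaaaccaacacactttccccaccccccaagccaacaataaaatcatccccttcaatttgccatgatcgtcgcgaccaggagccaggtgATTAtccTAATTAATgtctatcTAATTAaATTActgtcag
The *Eomes* window held 4 matches and the *Tbr1* window 7. In *Tbr1*, 2 of the places formed the palindrome TAATTA, which counts as a match on each strand, starting 33 and 18 bases before the start. *Lhx9* had 2 matches, *Lhx1* 1, and *Reln* and both listed starts of *Trp73* 0. The *Lhx9* window (chr1:138842445-138842694, minus strand) lies inside the span of the gene given above. The start at the end of that span was therefore not searched. Among 32851 mouse promoters of the same length, 54.9% held TAAT at least once, 1.92% held 7 or more matches, and 0.444% held TAATTA at least 2 times. The T-box half-site GGTGTGA was in none of the windows of the 6 genes and in 3.33% of all promoters. The *Tbr1* window had 45.2% GC, against a median of 52.4% over all promoters, and the shares above were not adjusted for this. It also overlaps an exon of a non-coding *Tbr1* transcript of the annotation. These matches are letters in a window, and binding was not measured here.

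After the limits on cell quality, 9822 control and 12146 DKO cells remained, with medians of 7620 and 5879 UMIs per cell and 80511672 and 81056488 UMIs in total. The libraries shared 22 cell barcodes. Clustering without the 8 genes and the lists below gave 21 clusters, of which 14 held 8045 control and 10760 DKO cells and are called retinal here, because no other tissue was their best match by markers. Clusters 10 and 14 matched no marker list, retinal lists included, so they are counted as retinal without retinal markers of their own. By the names rebuilt here, 0 and 9 were naive progenitor-like, 3 and 8 neurogenic-like, 19 photoreceptor-like, 17 amacrine or horizontal-like, 4 pigment epithelium-like and 5, 6 and 15 ganglion-like. Of the ganglion-like clusters, 85.6% of the cells of cluster 15 were called doublets. Clusters 1, 2, 10 and 14 kept no name, and clusters 10 (790 DKO cells, 0 control cells) and 14 (404 DKO cells, 1 control cell) were nearly without control cells. Of the targeted genes, *Six6* had 298 CPM (UMIs per 1000000) in control and 46.0 CPM in DKO retinal cells, and *Six3* 357 and 339 CPM. The kit reads the 3' end of transcripts, whereas Cre removes exon 1 of *Six3*. The study reports that bulk RNA-seq of mutant retinas had reduced coverage at the 3' end too. It also reports a stronger *Six3* reduction in Cre-positive than in Cre-negative DKO progenitors. Whether *Six3* UMIs separate deleted from undeleted cells was not tested here.

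Across all retinal cells, the 5 transcription factors were higher in the DKO library and the other 3 genes were not. *Eomes* had 16 UMIs in control cells and 1609 in DKO cells, or 0.245 CPM (0.140 to 0.398) and 22.3 CPM (21.2 to 23.4), a log2 ratio of 6.51 (5.80 to 7.32). *Tbr1* had 26 and 780 UMIs, with 0.398 and 10.8 CPM and a log2 ratio of 4.76 (4.2 to 5.38). *Lhx1* had 26 and 785 UMIs, with 0.398 and 10.9 CPM and a log2 ratio of 4.77 (4.21 to 5.39). In the control these factors were close to the detection limit, and *Lhx5* and *Lhx9* were also under 1 CPM, so the ratios depend on how low values are treated. With 1 CPM added to both levels they were 4.22 for *Eomes*, 3.08 for *Tbr1*, 3.09 for *Lhx1*, 3.18 for *Lhx5* and 3.54 for *Lhx9*. *Lhx5* had 46 and 1043 UMIs, with 0.705 and 14.4 CPM and a log2 ratio of 4.36 (3.93 to 4.82). *Lhx9* had 60 and 1543 UMIs, with 0.919 and 21.4 CPM and a log2 ratio of 4.54 (4.17 to 4.94). Reelin and calretinin, the products by which Cajal-Retzius neurons are usually recognised, did not follow the factors. *Reln* had 3626 and 3385 UMIs, with 55.5 CPM (53.8 to 57.4) in control and 46.9 CPM (45.3 to 48.5) in DKO cells, with a log2 ratio of -0.24 (-0.31 to -0.18). *Calb2* had 859 and 960 UMIs, with 13.2 and 13.3 CPM and a log2 ratio of 0.01 (-0.12 to 0.15). *Trp73* had 4 and 2 UMIs in retinal cells, and 5 and 3 in all cells kept, too few to compare.

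Thus 5 of the 8 genes were at least 2-fold higher in DKO retinal cells, or 5 of the 7 with at least 50 UMIs over both libraries, where 5.74% of the 14262 genes with that many UMIs were (818 genes). None of the 7 was at least 2-fold lower, as 1.12% of all such genes were. The median log2 ratio of the 8 was 4.45, and that of all such genes 0.04. Since the genes were chosen by this contrast, their count is no finding about them. In the red blood-like clusters 7 and 11, which should lack these factors, *Tbr1*, *Lhx1*, *Lhx5* and *Lhx9* had 0 UMIs in either library and *Eomes* 1 in each. Cluster 12, also red blood-like, was not used as background, since 22.1% of its cells were called doublets and its median was 921 UMIs in the DKO library, where it had 34 UMIs of *Eomes*, 15 of *Lhx9*, 12 each of *Tbr1* and *Lhx5* and 8 of *Lhx1*. The lens-like cluster 16, with 3.19% called doublets and a DKO median of 1605 UMIs, had 10 *Eomes* UMIs in its 147 DKO cells. All non-retinal DKO cells together had 6.44 CPM of *Eomes*. Clusters 7 and 11 thus do not bound the background of shallow clusters, and low levels of the factors are to be read with that limit. *Reln* in clusters 7 and 11 had 91 control and 23 DKO UMIs, or 10.1 and 6.35 CPM.

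**Figure D1:**
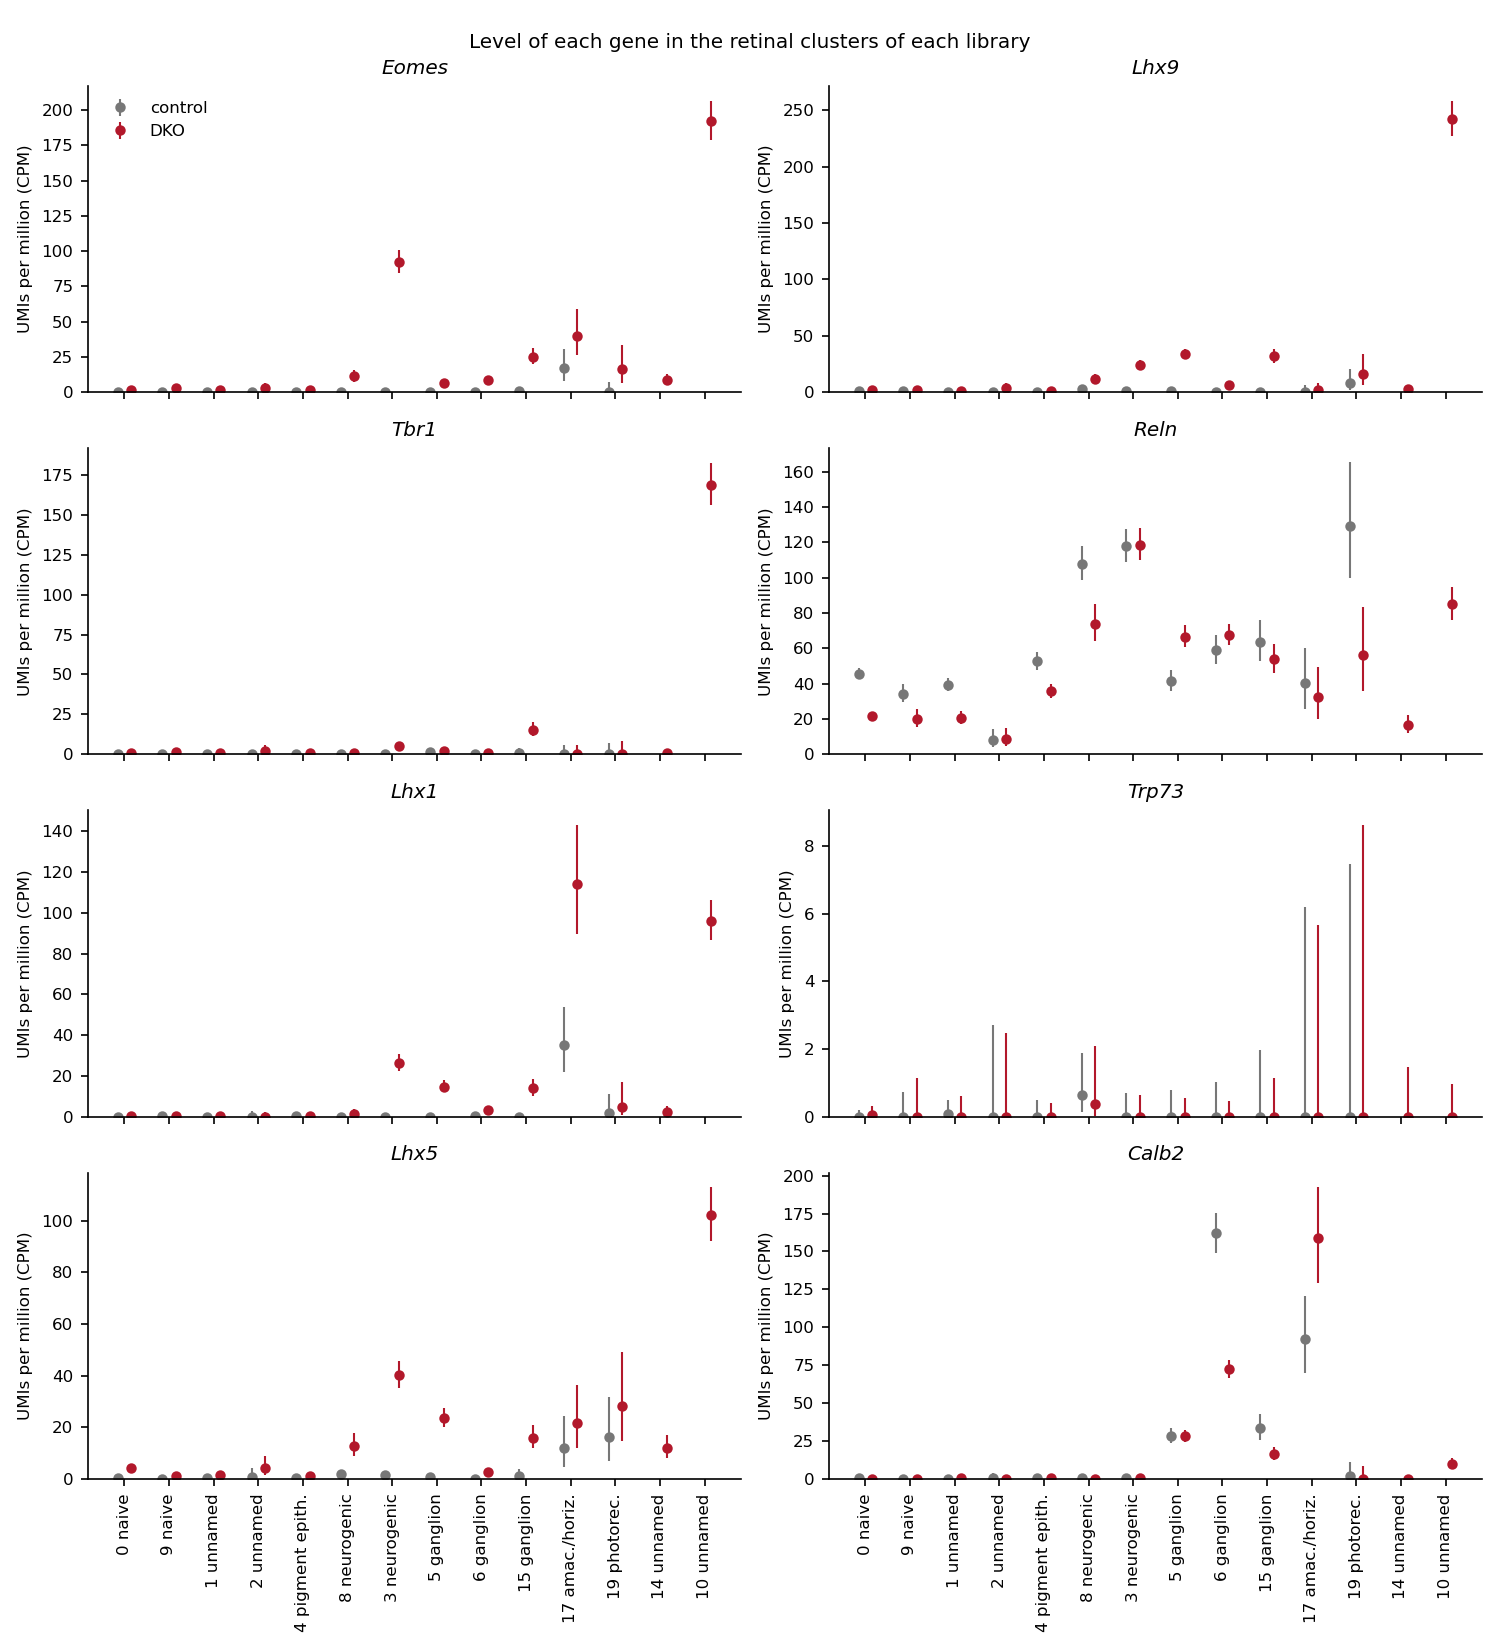
Level of each of the 8 genes, in UMIs per 1000000 (CPM), in every retinal cluster with at least 50 cells in the library, for the control (grey) and the DKO library (red). Points are sums over the cells of 1 library and bars are 95% Poisson intervals. The 5 transcription factors stand near 0 in most control clusters and at 96.1 to 242 CPM in DKO cluster 10, whereas *Reln* is present in most clusters of both libraries and *Trp73* in almost no cell.

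*Eomes*, a factor of neuronal progenitors in the cortex, was seen in the control mainly in the amacrine or horizontal-like cluster 17, which held 10 of its 16 UMIs (16.8 CPM, 8.07 to 30.9). In the DKO library cluster 17 had 40.03 CPM (26.2 to 58.7), a log2 ratio of 1.25 (0.15 to 2.47). Outside that cluster *Eomes* appeared where the control had almost none. The neurogenic-like cluster 3 had 1 control UMI and 543 DKO UMIs, or 0.191 and 92.4 CPM (84.8 to 101). Cluster 10, without control cells, had 724 UMIs and 192 CPM (178 to 207). In the order of DKO levels, cluster 10 was followed by cluster 3, cluster 17, the doublet-rich cluster 15 (25.2 CPM, 20.03 to 31.3), cluster 19 (16.4 CPM, 6.58 to 33.7) and the other neurogenic-like cluster 8 (11.2 CPM, 7.56 to 16.0). Clusters 6, 14 and 5 followed with 8.92, 8.33 and 6.70 CPM. The intervals of clusters 10 and 3 did not overlap those of any other cluster. Those of 17, 15 and 19 overlapped each other, as did those of 19, 8, 6, 14 and 5. The other retinal clusters were at or under 3.06 CPM.

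*Tbr1*, a factor of early-born glutamatergic neurons, was the most confined of the 8. Cluster 10 held 636 of its 780 DKO retinal UMIs and had 169 CPM (156 to 182). The next level was in the doublet-rich cluster 15 with 15.4 CPM (11.4 to 20.2), and cluster 3 followed with 5.11 CPM (3.45 to 7.29), against 0.191 CPM in the control. In the ganglion-like cluster 5, *Tbr1* had 1.28 CPM in control and 1.98 CPM in DKO cells, with a log2 ratio of 0.63 with an interval of -0.87 to 2.31 that included no difference. No other retinal cluster passed 2.01 CPM, and clusters 17 and 19 had no *Tbr1* UMI in either library.

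*Lhx1* had a place of its own in the control, since 21 of its 26 retinal UMIs lay in the amacrine or horizontal-like cluster 17 (35.3 CPM, 21.9 to 54.0). In the DKO library that cluster had 114 CPM (89.5 to 143), a log2 ratio of 1.69 (0.97 to 2.46). Cluster 10 had 96.1 CPM (86.4 to 106), an interval that overlapped that of cluster 17. Clusters 3 and 5 had no control UMI and 26.2 CPM (22.2 to 30.7) and 14.8 CPM (11.97 to 18.0) in the DKO library. Set against a floor of 3 UMIs per group, their levels were at least 45.8-fold and at least 23.0-fold higher. Cluster 15 had 13.8 CPM, within the interval of cluster 5, and cluster 6 had 3.44 CPM.

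*Lhx5*, a paralog of *Lhx1*, was detected in the control in the photoreceptor-like cluster 19 (16.2 CPM, 6.98 to 31.9) and in cluster 17 (11.8 CPM, 4.74 to 24.3). Their DKO levels of 28.0 CPM and 21.6 CPM had intervals that overlapped those of the control. In the DKO library cluster 10 had 102 CPM (92.2 to 113) and cluster 3 had 40.2 CPM (35.2 to 45.6), against 1.52 CPM in control cells of cluster 3 (log2 ratio 4.72, 3.72 to 5.95). The ganglion-like cluster 5 had 0.641 CPM in control and 23.6 CPM in DKO cells (log2 ratio 5.20, 3.63 to 7.49). Clusters 15, 8 and 14 followed with 16.0, 12.7 and 11.9 CPM and overlapping intervals. In the DKO library *Lhx5* was also the factor with the most UMIs in naive progenitor-like cells. Cluster 0 had 3 *Lhx5* UMIs in control and 76 in DKO cells, or 0.161 and 4.14 CPM (3.26 to 5.18). Control cells of cluster 0 had more UMIs of *Lhx9*, with 17.

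*Lhx9*, which marks several forebrain territories including the thalamic eminence, had 242 CPM (227 to 259) in DKO cluster 10. The ganglion-like clusters 5 and 15 followed with 33.5 CPM (29.2 to 38.2) and 31.9 CPM (26.1 to 38.7) and did not differ beyond their intervals. Control cells of cluster 5 had 1.28 CPM, a log2 ratio of 4.71 (3.56 to 6.17). Cluster 3 had 1.33 CPM in control and 24.2 CPM in DKO cells, with a log2 ratio of 4.18 (3.1 to 5.52). In cluster 8 the levels were 3.00 and 11.6 CPM, and in cluster 17 *Lhx9* had 0 UMIs in control and 1 in DKO cells, unlike *Lhx1* and *Lhx5*.

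*Reln* was present in most retinal cell types of the control, and its difference between the libraries did not have 1 direction. The highest control levels were 129 CPM (99.7 to 165) in the photoreceptor-like cluster 19, 118 CPM (109 to 128) in cluster 3 and 108 CPM (98.8 to 118) in cluster 8, with overlapping intervals. In cluster 3 the DKO level of 119 CPM (110 to 128) was not different from the control. It was lower in the naive progenitor-like clusters 0 (45.7 and 21.6 CPM, log2 ratio -1.08, -1.26 to -0.91) and 9 (34.5 and 20.2 CPM), in the unnamed cluster 1 (39.4 and 20.5 CPM), in cluster 4 (52.7 and 35.7 CPM), in cluster 8 (108 and 74.0 CPM) and in cluster 19 (129 and 56.1 CPM). It was higher only in the ganglion-like cluster 5, with 41.7 and 66.7 CPM and a log2 ratio of 0.68 (0.43 to 0.93), among the retinal clusters with an interval that excluded 0. DKO cluster 10 had 85.2 CPM (76.1 to 95.04), the next level after cluster 3, with an interval that overlapped those of clusters 8 and 19 and lay above that of cluster 6 (67.7 CPM, 62.0 to 73.7).

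*Calb2* belonged to ganglion-like and amacrine or horizontal-like cells in both libraries. In the ganglion-like cluster 6 it had 162 CPM (149 to 176) in control and 72.4 CPM (66.6 to 78.6) in DKO cells, with a log2 ratio of -1.16 (-1.33 to -0.99). In cluster 17 it had 92.5 CPM (69.7 to 120) and 159 CPM (129 to 192), a log2 ratio of 0.78 (0.29 to 1.28). Cluster 5 had 28.2 CPM in each library. In cluster 10 *Calb2* had 38 UMIs and 10.1 CPM (7.14 to 13.8), under its levels in clusters 5 and 6 and overlapping that of cluster 15 (16.3 CPM, 12.2 to 21.3). *Trp73* had 0 UMIs in cluster 10, and 4 of its 6 retinal UMIs lay in the neurogenic-like cluster 8.

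In single clusters, the genes at least 2-fold higher in the DKO library, of those with at least 50 UMIs, were 4 of 5 in cluster 3 (2.93% of all genes), 3 of 5 in cluster 5 (3.42%), 1 of 3 in cluster 6, which was *Eomes* (2.30%), 1 of 2 in cluster 17, which was *Lhx1* (1.34%), and 0 of 1 in cluster 8 (1.42%). The genes were chosen by this contrast and several passed the minimum only through the DKO library, so nothing is read from these counts.

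The clusters nearly without control cells held 8.71% of all UMIs of DKO retinal cells but 81.9% (79.0 to 84.6) of those of *Tbr1* and 59.6% (57.1 to 62.1) of those of *Lhx9*. They held 46.9% of the *Lhx1*, 46.3% of the *Eomes* and 39.8% of the *Lhx5* UMIs. For *Reln* the share was 10.7%, close to that of all UMIs, and for *Calb2* it was 3.96%. These shares rest on the clustering: their median over the 7 genes other than *Trp73* was 46.3%, and 74.4% when the libraries were merged without integration. Cluster 14 contributed little, with 8.33 CPM of *Eomes* and 11.9 CPM of *Lhx5* as its highest levels of the 5 factors. More than a few cells outside these clusters thus carried the factors. When both clusters were left out, DKO retinal cells had 13.1 CPM of *Eomes* (log2 ratio 5.74), 9.53 CPM of *Lhx5* (3.76), 9.45 CPM of *Lhx9* (3.36), 6.33 CPM of *Lhx1* (3.99) and 2.14 CPM of *Tbr1* (2.42). These levels include the doublet-rich cluster 15, where 85.6% of cells were called doublets and which held 50 UMIs of *Tbr1* and 104 of *Lhx9*. The plot of UMIs by cluster shows *Eomes* divided mainly between cluster 10 and the neurogenic-like clusters, and *Lhx9* between cluster 10 and the ganglion-like clusters. Of the ganglion-like clusters, cluster 5 held 220 UMIs of *Lhx9*.

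**Figure D2:**
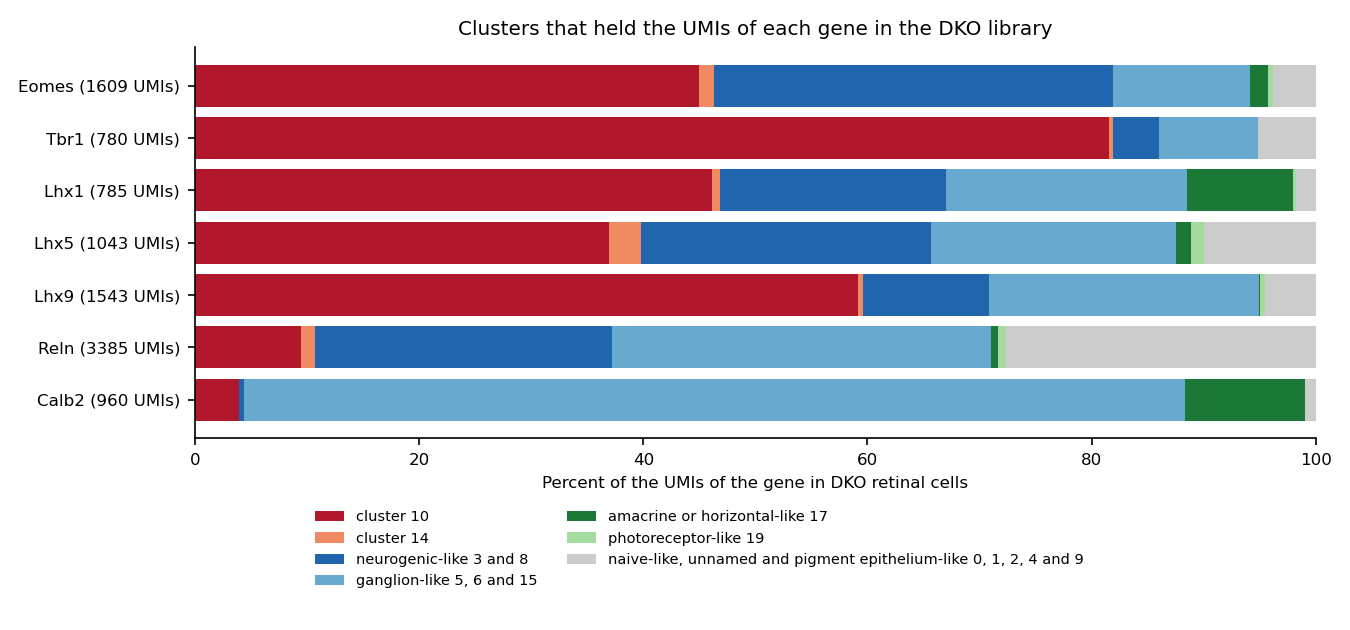
Percent of the UMIs of each gene in DKO retinal cells that lay in each group of clusters, with the number of UMIs beside the name (*Trp73*, with 2 UMIs, is left out). *Tbr1* lies mostly in cluster 10, *Calb2* by the ganglion-like and amacrine or horizontal-like clusters, and *Reln* is spread over all groups.

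Among the 13375 genes ranked by their level in cluster 10 over all other DKO retinal cells, *Tbr1* was the 2nd (log2 ratio 6.33), *Lhx9* the 7th (4.72), *Lhx1* the 14th (3.96), *Eomes* the 16th (3.89) and *Lhx5* the 34th (3.41). *Reln* ranked 1377 with 0.93 and *Calb2* 8817 with -0.42. Of the 7 genes, 5 were at least 2-fold higher in the cluster, as 9.07% of all ranked genes were. This cluster was defined on the same cells, although without these genes, so the ranks are a description. Of 19 other genes associated with Cajal-Retzius neurons, 8 were at least 2-fold higher in the cluster than in other DKO retinal cells, among them *Rspo3* (4.71) and *Emx2* (3.78), and 2 were at least 2-fold lower, among them *Ndnf*, which had 0 CPM. *Trp73* had 0 UMIs in it, where all DKO retinal cells had only 2. These cells matched no marker list, so they are called cluster 10 and given no cell type. Its cells had lower levels of all 9 naive progenitor markers (sum 173 CPM against 2095 CPM in other DKO retinal cells). Of 10 ganglion cell markers, 6 were at least 2-fold lower and 1, *Stmn2*, at least 2-fold higher (18.7% of all genes were lower and 9.07% higher by that fold). Their sum was 4979 CPM against 4609 CPM, of which *Stmn2* alone gave 3284 and 1187 CPM. Of 8 neurogenic markers, 2 were higher and 3 lower by that fold (857 and 1096 CPM in sum), and of 8 amacrine or horizontal markers 3 were higher and 2 lower (104 and 86.7 CPM). Markers of pigment epithelium summed to 23.4 CPM, those of lens to 111 CPM and those of mesenchyme to 0.531 CPM (5 of 7 at 0), against 263, 120 and 3.07 CPM in the other cells.

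To describe which genes occurred in the same cell, every cell was thinned at random to 2000 UMIs, which left 7085 control and 9541 DKO retinal cells and removed 960 and 1219 shallower ones. In cluster 10, 776 cells remained, and a UMI was seen in 34.8% of them for *Lhx9*, 25.9% for *Tbr1*, 21.3% for *Eomes*, 16.5% for *Lhx5*, 15.5% for *Lhx1* and 12.1% for *Reln*. Without thinning these shares were 50.9%, 42.3%, 31.6%, 33.3%, 24.2% and 23.2%. In thinned cells of the red blood-like clusters 7 and 11 the share was 2.26% in control and 1.67% in DKO cells for *Reln*, and at most 0.186% for any of the 5 factors. At least 1 of the 5 factors was seen in 70.6% of cluster 10 cells, in 79.5% at 4000 UMIs and in 87.3% without thinning. A missing UMI therefore does not show that a cell lacked the gene.

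At least 3 of the 8 genes were seen in 111 of the 9541 DKO retinal cells, or 1.16% (0.958 to 1.40; 2.57% at 4000 UMIs and 4.11% without thinning), and in 0 of 7085 control cells, where a floor of 3 counts allows a share of up to 0.0423%. Of these 111 cells, 84 were in cluster 10, where they made up 10.8% of the cells, and 18 in cluster 3, where they made up 1.5%. No cell had more than 5 of the genes. In the red blood-like clusters 7 and 11, none of 539 DKO and 1063 control cells had more than 1.

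In DKO retinal cells, 357 had an *Eomes* UMI, and 17.9% (14.1 to 22.3) of them also had a *Tbr1* UMI, against 1.87% of the cells without *Eomes*. In the other direction, 27.1% of the 236 cells with *Tbr1* also had *Eomes*, and 41.9% (35.6 to 48.5) also had *Lhx9*. The first share was 17.4% without called doublets, 22.9% at 4000 UMIs and 27.3% without thinning. Since the genes share clusters, the shares were also taken within clusters. In cluster 10, *Tbr1* went with *Lhx9*: 47.8% (40.7 to 54.9) of the cells with *Tbr1* had *Lhx9*, against 30.3% (26.5 to 34.2) of those without. *Lhx1* and *Lhx9* were seen together less often, since 23.3% (16.1 to 31.9) of the cells with *Lhx1* had *Lhx9*, against 36.9% (33.2 to 40.7) of those without. *Reln* was seen in 5.97% (3.12 to 10.2) of the cells with *Tbr1*, against 14.3% (11.5 to 17.4) of those without. For *Eomes* and *Tbr1* themselves the difference within cluster 10 was within the intervals, with 30.3% (23.4 to 37.9) against 24.7% (21.3 to 28.3). These are shares of cells of 1 library, and the cells are not replicates.

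Cluster 3 had another pairing. There *Eomes* went with *Lhx1*, as 52.0% (37.4 to 66.3) of the 50 cells with *Lhx1* had an *Eomes* UMI, against 9.19% (7.58 to 11) of those without. *Lhx5* was seen in 17.4% (11.4 to 25.0) of the cells with *Eomes* and in 5.78% (4.46 to 7.35) of those without. *Tbr1* was rare, with 15 cells, of which 10 had *Eomes*. For *Lhx9* the shares of 6.06% (2.65 to 11.6) with and 3.82% (2.76 to 5.15) without *Eomes* overlapped, and no cell had both *Lhx9* and *Tbr1*. In the ganglion-like cluster 5, 17 cells had at least 2 of the 5 factors, and 8 of them had *Lhx5* and *Lhx9*. *Lhx9* was seen in 18.6% (8.39 to 33.4) of the 43 cells with *Lhx5* against 4.95% (3.69 to 6.50) of those without.

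**Figure D3:**
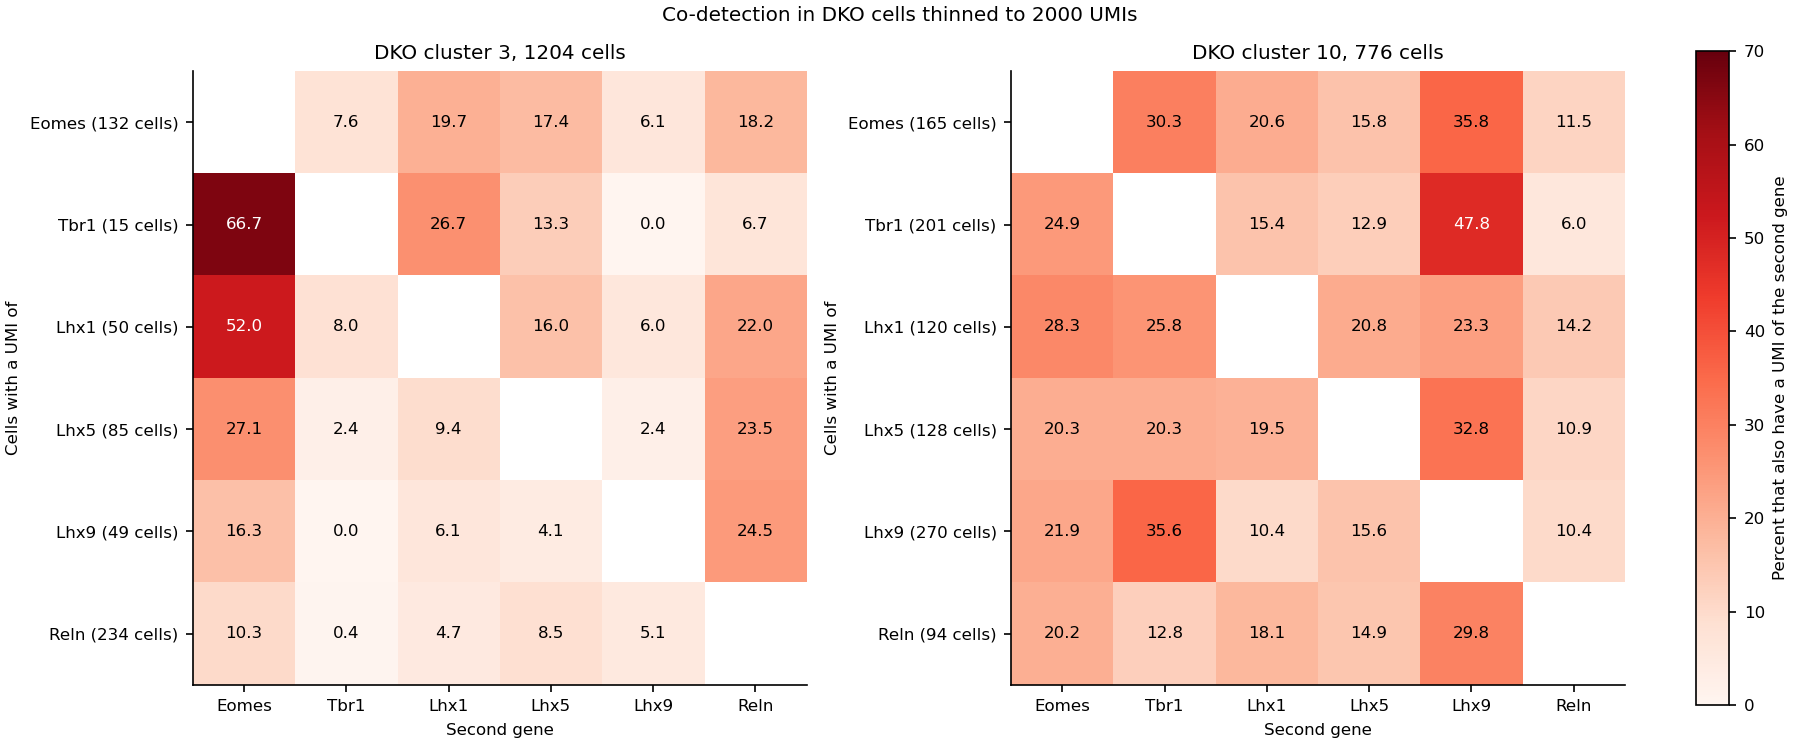
Percent of the DKO cells with a UMI of the gene on the vertical axis that also had a UMI of the gene on the horizontal axis, in clusters 3 and 10, after each cell was thinned to 2000 UMIs. In cluster 3, 52.0% of the 50 cells with *Lhx1* had *Eomes*, as did 10 of only 15 cells with *Tbr1* (66.7%). In cluster 10 the highest share is that of *Lhx9* among cells with *Tbr1*, at 47.8%.

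Cells of cluster 3 with and without *Eomes* were compared for single genes, which were picked after values were seen. *Atoh7*, which marks neurogenic retinal progenitors, had 2839 CPM in all 830 thinned control cells of the cluster and 1924 CPM (1866 to 1984) in the 1067 DKO cells with neither *Eomes* nor *Tbr1*. In the 122 DKO cells with *Eomes* only it had 205 CPM (152 to 270). *Neurog2*, a proneural bHLH factor used in the cortex and the retina, had 52.4 CPM in control cells, 251 CPM (230 to 273) in the cells with neither and 602 CPM (509 to 708) in those with *Eomes* only. *Neurod1* had 280, 584 and 676 CPM in the same order, and the intervals of the latter values overlapped. *Slc17a6*, the vesicular glutamate transporter VGLUT2, was at 0, 10.3 and 143 CPM. *Six3* was at 355, 284 and 123 CPM. *Isl1* and *Pou4f2*, factors of ganglion cell differentiation, had 159 and 89.0 CPM in the cells with neither and 20.5 and 8.20 CPM in those with *Eomes* only.

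The level of *Atoh7* differed with the factor detected. In DKO cells of cluster 3 with a *Lhx9* UMI its interval was 812 to 1219 CPM, with *Lhx5* it had 653 CPM (537 to 786), with *Lhx1* 550 CPM (414 to 716) and with *Eomes* 189 CPM (141 to 250). The groups share cells. *Atoh7* was not used to group the cells by factor. It is, however, among the neurogenic markers that named the cluster, and it was not left out of the clustering features. In cluster 10 the 115 cells with *Eomes* only had 143 CPM of *Atoh7* (98.8 to 201), the 50 cells with *Eomes* and *Tbr1* had an interval of 48.0 to 184 CPM and the 151 cells with *Tbr1* only 29.8 CPM (13.6 to 56.6). *Neurod1* had 483, 450 and 232 CPM in this order, and *Neurog2* 296, 320 and 166 CPM. *Stmn2*, a gene of growing axons, had 2143 CPM (1958 to 2341), 1870.0 CPM (1612 to 2158) and 3500.0 CPM (3292 to 3718), so that it was higher in the cells with *Tbr1* only than in either group with *Eomes*. *Lhx9* had 252, 290 and 424 CPM, and *Six3* had 126 CPM (84.4 to 181) in the cells with *Eomes* only and 49.7 CPM (27.8 to 81.9) in those with *Tbr1* only. *Slc17a6* had 365 CPM in the cells with *Eomes* only, and its interval overlapped that of the cells with *Tbr1* only.

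**Figure D4:**
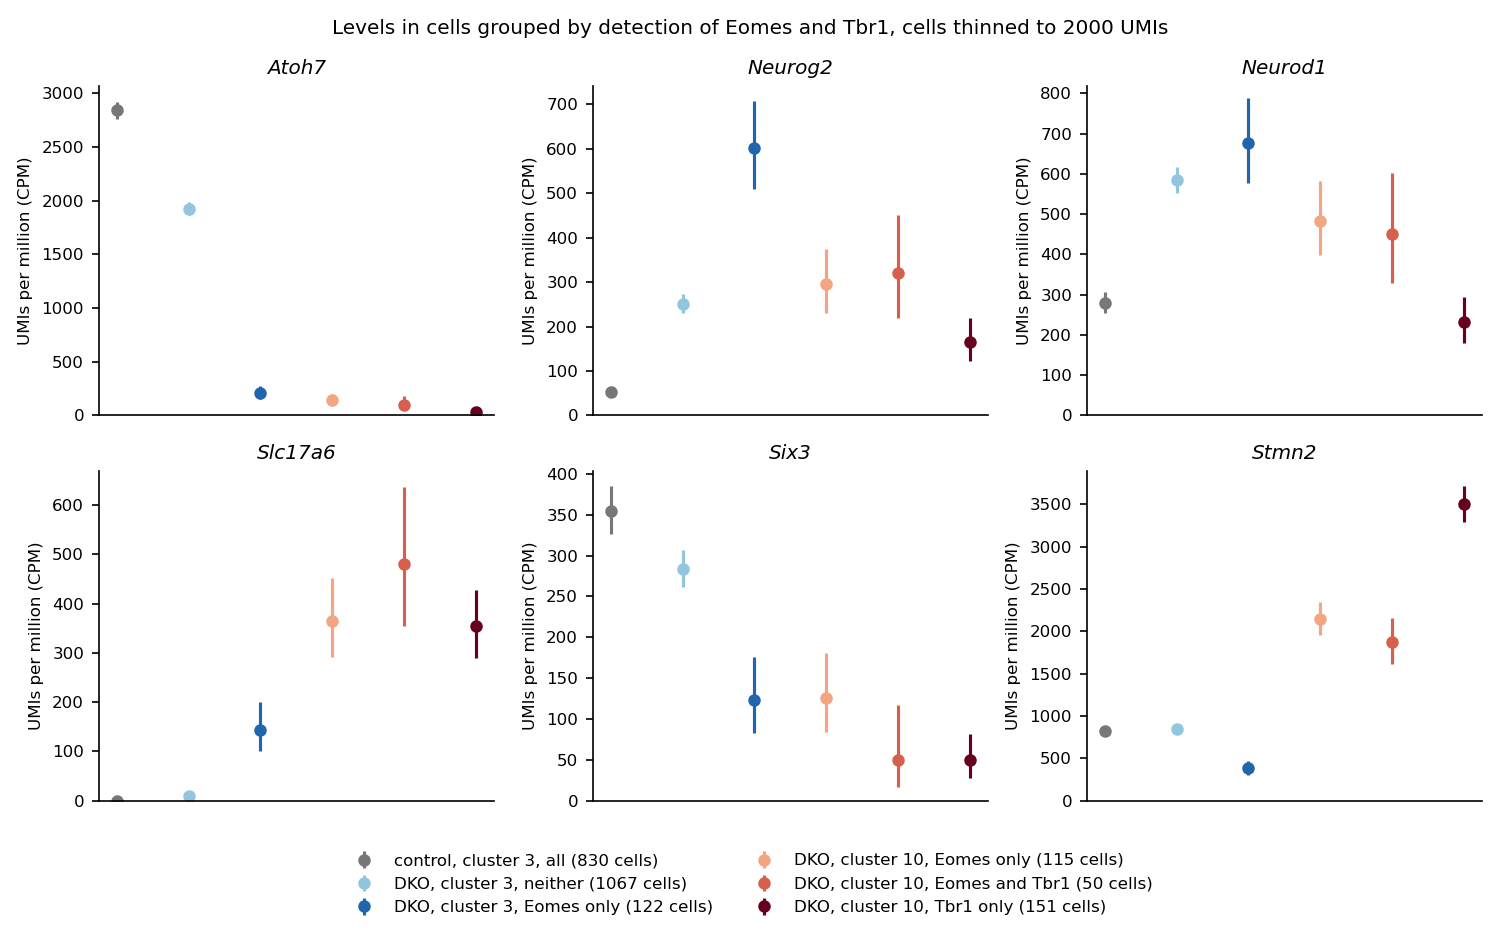
Levels of 6 genes, in UMIs per 1000000 (CPM), in cells grouped by whether a UMI of *Eomes* or *Tbr1* was seen after thinning to 2000 UMIs, with 95% Poisson intervals. *Atoh7* is at 2839 CPM in control cells of cluster 3 and at or under 205 CPM in every group of DKO cells with *Eomes* or *Tbr1* shown, and *Six3* is lowest in the cells of cluster 10 with *Tbr1*.

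*Lhx1* was found in cells of different kinds. In cluster 17, 31 DKO cells and 7 control cells had a *Lhx1* UMI after thinning, 19.4% and 6.67% of the cells (24.8% and 8.41% without thinning). *Tfap2b*, a factor of amacrine and horizontal cells, had 1790 CPM (1473 to 2156) in these DKO cells and 2429 CPM (1682 to 3394) in these control cells. *Onecut1* and *Prox1*, factors of horizontal cells, had 242 and 468 CPM in the DKO cells, against 96.9 and 341 CPM in DKO cells of the cluster without a *Lhx1* UMI. The intervals of *Prox1* overlapped and those of *Onecut1*, 135 to 399 and 62.7 to 143, overlapped narrowly. *Tfap2b*, *Onecut1* and *Prox1* are among the markers that named cluster 17, so high levels there follow in part from the naming. The level of *Tfap2b* in cells of the cluster without *Lhx1* is not given here. No *Eomes* UMI was seen in the 31 DKO cells with *Lhx1*, and 12 other DKO cells of the cluster had one. The 31 cells are too few to tell these shares apart. *Slc17a6* and *Rspo3* were at 0 in them. In cluster 10, the 120 cells with *Lhx1* had no *Tfap2b* UMI (interval up to 15.4 CPM) and had 408 CPM of *Slc17a6* and 529 CPM of *Rspo3*, which encodes a Wnt-enhancing secreted protein. The 50 cells of cluster 3 likewise had no *Tfap2b* UMI, and had 120 CPM of *Slc17a6*.

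**Figure D5:**
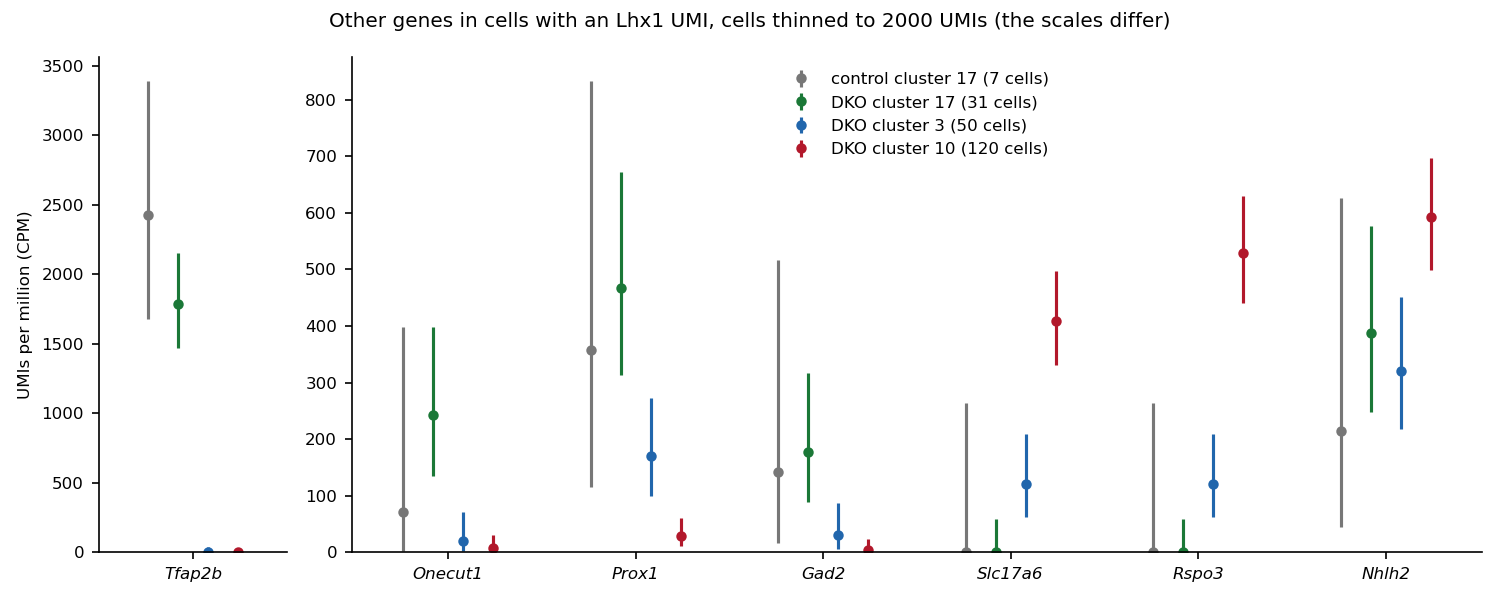
Levels of 7 other genes, in UMIs per 1000000 (CPM), in cells with a *Lhx1* UMI after thinning to 2000 UMIs, with 95% Poisson intervals and separate scales for *Tfap2b* and the rest. *Tfap2b* is high in cluster 17 of both libraries and at 0 in clusters 3 and 10, whereas *Slc17a6* and *Rspo3* are at 0 in cluster 17. *Tfap2b*, *Onecut1*, *Prox1* and *Gad2* are among the markers that named cluster 17.

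Likeness to other genes was measured over 38 groups of cells, each a cluster in 1 library, as the Pearson correlation of log2(CPM + 10). The groups share libraries and, in pairs, clusters, so the values are descriptive. The nearest genes were *Lhx1os* (0.90), *Neurod2* (0.89) and *Lhx5* (0.89) for *Eomes*, for which *Tbr1* reached 0.75, and *Gjd2* (0.91), *Rasgrp1* (0.89) and *Lhx9* (0.87) for *Tbr1*. For *Lhx1* they were *St18* (0.93), *Lhx1os* (0.91) and *Nxph4* (0.89), for *Lhx5* *Lhx1os*, *Eomes* and *Lhx9* (0.89 to 0.87), and for *Lhx9* *Sim1* (0.93), *Gjd2* (0.92) and *Rspo3* (0.91). *Reln* and *Calb2* had other neighbours, namely *Zhx3*, *Pcdh17* and *Sema3f* (0.88 each) and *Cacng2* (0.95), *Tmem179* (0.95) and *Ndst3* (0.92).

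Genes lying within 10000 bases of the 8 were looked up after the values had been seen. *Lhx1os*, a long non-coding RNA that starts 125 bases from *Lhx1* on the opposite strand, had 4 UMIs in control and 283 in DKO retinal cells, a log2 ratio of 6.0 (4.63 to 7.88). *Gm27199*, antisense to *Lhx5* and overlapping it, had 0 and 113 UMIs, a ratio of at least 5.09 on the log2 scale. The protein-coding neighbours differed little, with log2 ratios of 0.21 for *Psmd14* beside *Tbr1*, 0.17 for *2310009B15Rik* beside *Lhx9*, 0.07 for *Wrap73* beside *Trp73* and 0.03 for *Aatf* beside *Lhx1*. *Gm33460*, antisense to *Eomes*, had 0 and 1 UMIs. Whether the counting used the strand is not given in the sources used here, so reads of an overlapping antisense pair such as *Lhx5* and *Gm27199* may not be fully separated.

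The next counts, over retinal cells of both libraries, stand beside 5.74% of all genes at least 2-fold higher and 1.12% at least 2-fold lower. Of 5 other T-box genes with at least 50 UMIs in retinal cells, none was 2-fold higher or lower. *Tbx5*, a dorsal retina factor, had a log2 ratio of 0.34 (0.20 to 0.47), and the highest after it was under 0. *Tbx3* and *Tbx2* had -0.64 (-0.72 to -0.55) and -0.69 (-0.79 to -0.60). Of 4 other LIM-homeobox genes, 2 were at least 2-fold higher, *Isl2* (1.24) and *Lhx4* (1.02), and *Lhx2* (0.29) and *Isl1* (0.09) were not. Among 10 LIM cofactors, *Lmo3* (4.65, 4.2 to 5.13) and *Lmo2* (2.08) were higher, and the other 8 were within 2-fold. All 3 genes of the p53 family list that could be compared were within 2-fold.

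Of 13 genes of reelin signalling, 2 were at least 2-fold higher, *Itga3* (1.19) and *Efnb1* (1.12), and 11 were within 2-fold. The reelin receptors *Lrp8* and *Vldlr* had log2 ratios of 0.85 and -0.11, and *Dab1*, the adaptor that both receptors use, -0.43. Of 3 EF-hand calcium buffers, *Calb1* was higher (2.0, 1.84 to 2.16).

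Of 19 other genes associated with Cajal-Retzius neurons, 7 were at least 2-fold higher, 1 lower and 11 within 2-fold, with a median of 0.73. *Dbx1*, a homeobox gene of Cajal-Retzius source regions, had 4 UMIs in control and 999 in DKO retinal cells (7.82, 6.46 to 9.70), *Emx2* had 0 and 202 (at least 5.93) and *Rspo3* 36 and 2131 (5.74, 5.27 to 6.26). In DKO cluster 10 against other DKO retinal cells, *Dbx1* was lower (8.76 CPM, log2 ratio -0.69), unlike *Emx2* (3.78) and *Rspo3* (4.71). *Ndnf*, made by Cajal-Retzius neurons, had -0.99 (-1.20 to -0.78), within 2-fold, and *Sp8* (-2.14) was the gene at least 2-fold lower. Of 12 genes of the thalamic eminence and prethalamus, 4 were higher and none was lower, with a median of 0.76. *Sim1* had 0 and 217 UMIs (at least 6.03) and *Fezf1* 18 and 676 (5.09), with *Rspo3* between them. The prethalamic factors *Dlx1* (-0.75) and *Dlx2* (-0.88) were lower by less than 2-fold. Of 11 genes of the cortical hem and pallium, 7 were higher and none was lower, with a median of 1.44. *Wnt7b* (4.57) and *Dmrta2* (4.08) followed *Emx2*, and *Wnt5a* (-0.24) and *Bmp4* (-0.31) were within 2-fold. These lists overlap and were made with results of these libraries known, so their counts are not independent of each other or of the 8 genes.

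Of 15 genes of glutamatergic neuron differentiation, 7 were higher and none was lower, led by *Neurod2* (5.47), *Neurog1* (3.58) and *Sox5* (2.10), with *Bcl11b* (0.25) and *Btg2* (-0.23) the lowest. In cluster 10 against other DKO retinal cells, *Neurog1* was lower (-2.33), whereas *Neurod2* (3.16) and *Sox5* (2.16) were higher. Of 12 GABAergic and amacrine genes, 4 were higher, among them *Tfap2c* (4.25) and *Tfap2a* (3.08), and *Pax2* was lower (-1.15). Of 9 genes of the horizontal cell program of *Lhx1*, 4 were higher, with *Sall3* (2.54) and *Calb1* next to *Tfap2a*, whereas *Prox1* (-0.13) and *Foxn4* (-0.32) were within 2-fold. Pan-neuronal genes had a median of 1.06, with 6 of 12 at least 2-fold higher, led by *Rbfox3* (1.62), *Mapt* (1.43) and *Ina* (1.34). In DKO cluster 10 against the other DKO retinal cells, 8 of the 12 pan-neuronal genes were at least 2-fold higher (9.07% of all genes) and 2 at least 2-fold lower, the neurofilament genes *Nefl* (-2.16) and *Nefm* (-1.86). All 11 proliferation genes were at least 2-fold lower, as 18.7% of all genes were. In all retinal cells the 11 proliferation genes were within 2-fold, with a median of -0.32. The part that a larger share of neurons in the DKO library has in the ratios over all retinal cells was not tested beyond the values given per cluster.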

How the data were processed

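One control and 1 DKO library of E13.5 eyecups were compared. Per the labels and the study's methods, the authors mapped reads to mm10 with Cell Ranger 3.1.0 and deposited UMI counts per gene and cell, not normalized. The strand setting is not given in the sources used here. Following the study, a cell needed over 200 and under 6000 genes and a mitochondrial share of UMIs under 20%. The libraries were integrated and clustered in Seurat 5.3.0 with R 4.3.3 (2000 features, 20 dimensions, resolution 0.5). The 8 genes, the lists, hemoglobin genes and sex-linked genes (183 listed genes) were left out of the features. Markers that named the clusters were left out only where they also belonged to these groups. Cluster names were rebuilt from markers (75% of a class above the other cells) and need not match the study's. Doublets were called with Scrublet in scanpy 1.11.5 at the lower of the automatic thresholds of both libraries, since that of the control alone called 0 cells (300 control and 329 DKO cells, 3.05% and 2.71%) and kept.

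Levels are summed UMIs per 1000000 (CPM). Intervals are exact Poisson for levels, from the exact binomial split for ratios, and exact binomial for shares. The 2-fold call, but not the intervals, was checked on simulated counts. A ratio against 0 UMIs used a floor of 3 UMIs. PCR copies were already collapsed by UMI. Retinal totals were 65275974 control and 72209611 DKO UMIs. With 1 library per genotype no test was made. Python 3.11.15, numpy 2.4.6, scipy 1.17.1, pandas 2.3.3 and matplotlib 3.10.9 were used.

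The 8 genes and all lists were chosen with earlier results of these data known. Named from each list are the genes with at least 100 DKO UMIs that had the 3 highest and 2 lowest ratios. Also named are the 3 genes nearest each of the 8, and the 10 genes leading in cells with at least 3 of them (at least 100 UMIs there). Some genes these rules name are not reported here. The genes shown by detection state were chosen after values were seen. *Ahsp* and *Tbxt* did not match a symbol. Alternatives were other features, no integration, resolutions 0.3 and 1, another kernel, no doublets, at least 1000 genes, other totals, means over cells, 1 CPM added, all cells, a background of genes with any UMI, and other thinning. Promoters came from RefSeq.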

Additional observations from a re-analysis of the deposited data

Results flagged for a closer look

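*Reln* differed between the libraries in opposite directions in different cell types. Its log2 ratio was 0.68 in the ganglion-like cluster 5 and -1.21 in the photoreceptor-like cluster 19. *Calb2* likewise had a log2 ratio of 0.78 in the amacrine or horizontal-like cluster 17 and -1.16 in the ganglion-like cluster 6. With 1 library per genotype the differences between these ratios were not tested.

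The 5 factors also had UMIs in cells outside the retina, which the comparisons did not use. In non-retinal DKO cells *Eomes* had 6.44 CPM, *Tbr1* 2.94 CPM, *Lhx1* 2.15 CPM, *Lhx5* 2.37 CPM and *Lhx9* 2.83 CPM, against 0.131, 0.131, 0.0656, 0.0656 and 0.0656 CPM in non-retinal control cells. The red blood-like cluster 12 held 34 of the 57 UMIs of *Eomes*, 15 of the 25 of *Lhx9* and 12 of the 26 of *Tbr1*, and 22.1% of its cells were called doublets. The lens-like cluster 16 and the macrophage-like cluster 18 held 10 and 9 UMIs of *Eomes*. In the other red blood-like clusters the 5 factors together had 1 UMI. The part of doublets in these counts was not tested.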

How the results depend on the processing

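At least 2-fold higher levels were found for 5 of the 8 genes under all alternatives run, and no log2 ratio that could be called turned its direction. With genes of any UMI as background, 7.90% of genes passed that fold. The median share of DKO retinal UMIs in clusters nearly without control cells, 46.3% over the 7 genes other than *Trp73*, depended on the clustering. It was 74.4% with the libraries merged without integration, 61.9% at resolution 1, 60.6% at resolution 0.3, 41.2% with another linear algebra kernel and 49.4% without doublets, and the cause was not tested. Such clusters held 1194 DKO cells as reported and from 1145 to 4396 under the alternatives. With 1 CPM added, the median log2 ratio was 3.08 in place of 4.45. The share of DKO retinal cells with at least 3 of the genes was 2.57% at 4000 UMIs and 4.11% without thinning, and that of cells with *Eomes* that also had *Tbr1* was 22.9% and 27.3%. Means over cells moved *Tbr1* to 5.66 and *Lhx9* to 5.14, and over all kept cells *Reln* had -0.13 and *Calb2* 0.18 (0.05 to 0.31), whereas the interval of *Calb2* as reported included 0. No paired analysis was possible because the design holds 1 library of each kind. Depth limits *Trp73*, whose 6 retinal UMIs allow no comparison, and *Eomes*, *Tbr1* and *Lhx1*, whose control levels rest on 16, 26 and 26 UMIs.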

Other observations

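Cells in which at least 3 of the 8 genes were seen were compared with cells without any of them by summed UMIs, which do not show how many cells had each gene. Between the 111 such DKO retinal cells and the 7514 with none of the 8, both thinned to 2000 UMIs, *Uncx*, a homeobox gene of neurons, had the highest ratio among genes with at least 100 UMIs in the former, a minimum that favours genes that are high there. It had 797 and 62.2 CPM, or 12.8-fold. *Sorbs2* (10.4-fold), *Nrn1* (9.20-fold), which encodes neuritin, and *Elavl2* (7.22-fold), a neuronal RNA-binding protein, followed. *Igfbpl1* (5.89-fold), *Nnat* (5.47-fold), *Nhlh2* (5.16-fold), *Gm26735* (4.33-fold), *Dcx* (4.06-fold), a microtubule protein of migrating neurons, and *Map2* (3.92-fold) completed the 10 leading genes. The cells were chosen by the 8 genes and lay mostly in cluster 10, so these values describe that cluster as much as the joint detection.

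Leading the ranking of all genes for cluster 10 against other DKO retinal cells was *Samd3*, followed by *Tbr1*, *Nts*, which encodes neurotensin, and *Gm27199*, the antisense neighbour of *Lhx5*.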
